A study of Mus musculus with 20 samples.

Results

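Nucleoporins are the proteins that build the nuclear pore. Their genes were chosen by symbol, as the rows named Nup with a number plus Ranbp2, Tpr, Pom121, Aaas, Sec13, Seh1l, Nupl1, Nupl2, Rae1 and Gle1, and 30 of the 19269 genes in the count table met that rule. Ndc1 was not a row under that symbol. It was present as Tmem48 and was counted with the other pore-associated genes below, not among the 30. The question was how the transcripts of Nup98 and Ranbp2 stood against the other 28 in a control pull-down from mouse brain, and how all of them varied with age, with the ribosome tag and between sequencing sets.

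The tissue was punched from the preoptic area of the hypothalamus of female mice, at day 21 (young) or at days 70 to 150 in diestrus (adult), and tissue of 3 to 4 mice was pooled per sample. The method, translating ribosome affinity purification, pulls down GFP-tagged L10a ribosomes with the mRNA they carry. The cross of GnRH-Cre with floxed-stop L10a-GFP mice limits the tag to cells that express GnRH-Cre, and the negative-control pools carried no complete tag. The immunoprecipitates (IP) were 2 adult negative (both GnRH-Cre alone), 3 young negative (pools 1 and 2 wild type, pool 3 floxed L10a-GFP alone) and 1 adult GFP-positive (the cross), and each was matched by title to a depleted supernatant. Age and genotype thus changed together among the negative pools and cannot be told apart. Supernatants of 4 further GFP-positive pools from an earlier series, 2 adult and 2 young, were present from a second and from a first sequencing set, which made 20 libraries of 27.7 to 50.5 M counts. The labels used here do not say whether those pools had any prenatal treatment.

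In a pore, Y-complex and inner-ring proteins form the scaffold, membrane nucleoporins anchor it in the nuclear envelope, and proteins rich in phenylalanine-glycine (FG) repeats fill the channel and bind the transport receptors that carry cargo through. Filaments with Ranbp2 and Nup214 reach into the cytoplasm and a basket with Nup153, Nup50 and Tpr into the nucleus. The Nup98 transcript encodes a precursor that is cut into Nup98, an FG protein of the channel and of both faces, and Nup96, a Y-complex member.

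The FG repeats can be read in the coding sequences. For the 5 nucleoporins with the largest differences between IP and supernatant, the 150-base stretch of the coding sequence with the most in-frame FG codon pairs (a TTT or TTC codon followed by a GGN codon) is shown 5′ to 3′, with those pairs in capitals. Sequences are from the longest protein-coding transcript in GENCODE M21 (GRCm38, also called mm10), and positions count from the first base of the start codon. The stretches held 8 pairs in Nup98 (bases 10 to 159), 4 in Ranbp2 (7996 to 8145), 4 in Nup153 (3772 to 3921), 6 in Pom121 (2914 to 3063) and 6 in Nup214 (5038 to 5187).
Nup98: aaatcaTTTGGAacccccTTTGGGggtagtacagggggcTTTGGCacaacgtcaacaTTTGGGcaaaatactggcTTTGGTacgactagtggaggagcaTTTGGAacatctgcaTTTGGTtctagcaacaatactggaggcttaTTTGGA
Ranbp2: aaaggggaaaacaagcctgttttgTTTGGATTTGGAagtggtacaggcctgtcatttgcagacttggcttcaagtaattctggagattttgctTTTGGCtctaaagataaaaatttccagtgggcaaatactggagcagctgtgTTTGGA
Nup153: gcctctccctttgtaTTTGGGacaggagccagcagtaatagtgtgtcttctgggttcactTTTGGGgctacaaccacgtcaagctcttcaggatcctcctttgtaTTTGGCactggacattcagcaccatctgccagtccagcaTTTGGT
Pom121: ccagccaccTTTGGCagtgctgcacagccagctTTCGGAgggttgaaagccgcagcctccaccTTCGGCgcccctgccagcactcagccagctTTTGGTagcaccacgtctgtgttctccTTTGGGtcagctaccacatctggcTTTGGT
Nup214: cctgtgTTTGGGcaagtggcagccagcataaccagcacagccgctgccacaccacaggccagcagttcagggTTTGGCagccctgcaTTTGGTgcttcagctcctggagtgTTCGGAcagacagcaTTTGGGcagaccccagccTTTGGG
The spacing differed between the genes: in Nup98 the pairs stood close together near the start of the protein, in Nup153 longer runs of other codons lay between them, and in Ranbp2 one couple of pairs was directly adjacent and the others stood far apart.

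Levels are given as counts per M (CPM) scaled by trimmed means (TMM) over all 20 libraries. Markers of preoptic tissue and neurons were present in every group. The summed level of 5 neuron markers was 3411 to 4150 CPM in the negative IP, below the 4331 to 4878 CPM of the negative supernatant. The genes of that list split: mean levels, IP against supernatant, were lower in the IP for Snap25 (1895 against 2734 CPM) and Stmn2 (518 against 762 CPM), and higher for Syt1 (413 against 270.1 CPM), Rbfox3 (296 against 240.2 CPM) and Tubb3 (604 against 560.3 CPM). The summed level of 6 oligodendrocyte markers was 2836 to 7558 CPM in the IP and 3269 to 6675 CPM in the supernatant. The 4 astrocyte markers summed to 301 to 1083 CPM in the IP and 349 to 454 CPM in the supernatant. Gnrh1, which checks the tag, reached 1456 CPM in the pull-down of the GFP-positive pool, against a mean of 16.0 CPM in the negative IP. In these bulk samples fewer cells of a type and less RNA per cell cannot be told apart, and the part of cell makeup in the differences below was not tested.

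The pull-down without a tag recovered nucleoporin transcripts unevenly. Nup98 and Ranbp2 were more than 10-fold higher in the IP, 7 other members rose by log2 0.63 to 1.76, Seh1l fell, and the remaining 19 of 29 tested did not pass the threshold. The test was edgeR's quasi-likelihood test on the counts of all 16361 genes that passed a filter on low counts, with Benjamini-Hochberg adjusted p under 0.05 as the threshold. Of all genes tested 32.1% were called, 15.8% higher and 16.2% lower. The called share of the 29 members was 34.5%, with 9 higher and 1 lower. Without Nup98 and Ranbp2 it was 29.6% of 27, with 7 higher and 1 lower. Both shares lay near that of all genes. The background is not matched for transcript length. With genes split into 20 classes by length, 0.496% were called higher in the shortest class and 60.0% in the longest. No excess in either direction is therefore read from these counts. The median log2 fold change was 0.13 for the members and -0.03 for all genes tested. Nup210l, a relative of Nup210 known from testis, had at most 6 counts in any IP library and 19 in any negative supernatant and was not tested. Every negative IP library lay above every negative supernatant library for 7 members (Nup98, Ranbp2, Nup153, Pom121, Nup214, Tpr and Nup50), as it did for 12.2% of all genes, and for no member did every IP library lie below, as it did for 11.7% of all genes.

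**Figure D1:**
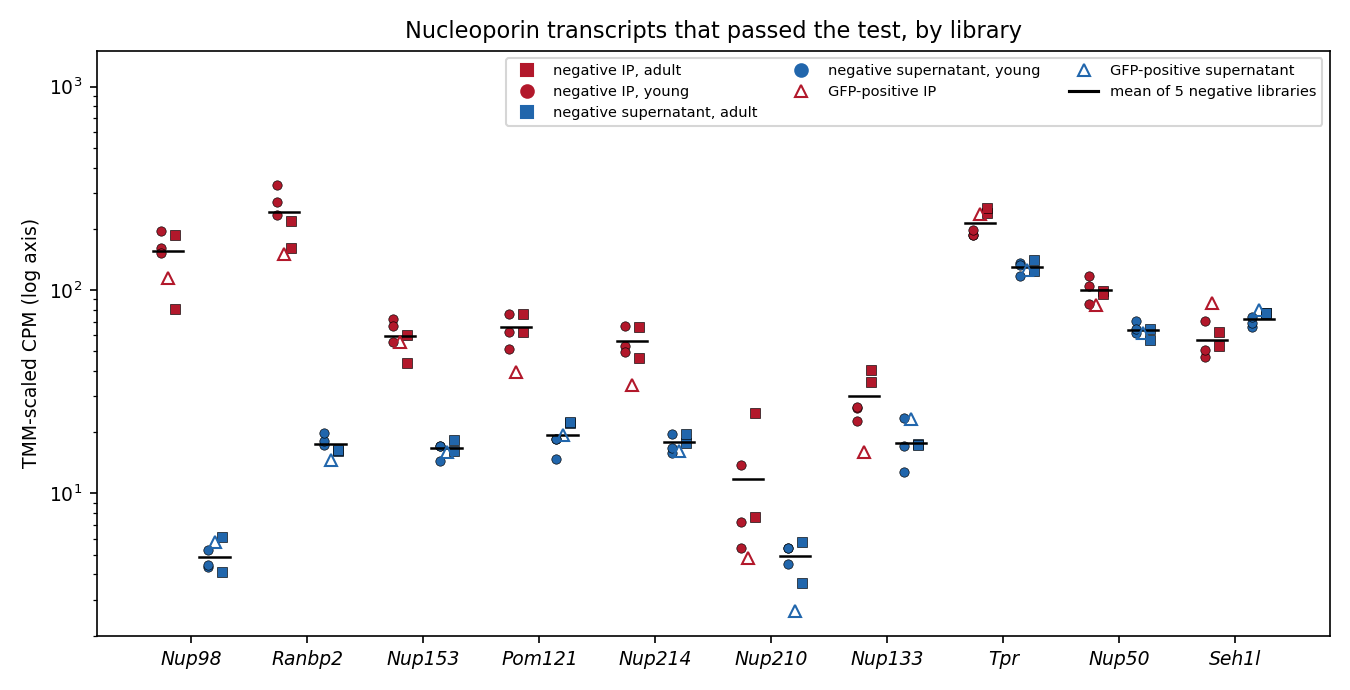
TMM-scaled CPM on a log axis for the 10 nucleoporins that passed the test, IP (red) left of supernatant (blue); squares are adult and circles young negative libraries, open triangles the GFP-positive pool, and bars the mean of the 5 negative libraries. Nup98 and Ranbp2 stand between 81.0 and 327 CPM in the negative IP and between 4.10 and 19.9 CPM in the negative supernatant.

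Nup98, whose protein carries repeats of the GLFG kind, had the largest difference of the members. It lies on chromosome 7 from 102119398 to 102210176 on the minus strand (mm10). Its level was 186 and 81.0 CPM in adult and 161, 194 and 152 CPM in young negative IP libraries, against 6.10 and 4.10 CPM in adult and 5.28, 4.37 and 4.43 CPM in young negative supernatants. The lowest IP library, adult pool 2, was still far above the highest supernatant. The mean was 155 ± 44.7 CPM in the IP and 4.86 ± 0.83 CPM in the supernatant (SD, n = 5 each), a 30.03-fold difference (log2 4.91, SE 0.27, adjusted p = 1.89e-06). These levels rested on 3148 to 8189 counts per IP library and 135 to 310 per supernatant. Among 16361 genes ranked by log2 fold change Nup98 was the 12th.

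Ranbp2, also called Nup358, forms the cytoplasmic filaments, binds Ran and acts as a SUMO ligase. It lies on chromosome 10 from 58446920 to 58494356 on the plus strand. Its level was 162 and 218 CPM in adult and 232, 327 and 269.8 CPM in young negative IP libraries, against 16.2 and 16.3 CPM in adult and 17.4, 18.2 and 19.9 CPM in young negative supernatants. The groups were widely apart, and the IP libraries varied more than the supernatants. The mean was 242 ± 61.5 CPM in the IP and 17.6 ± 1.55 CPM in the supernatant (SD, n = 5 each). The difference was 12.9-fold (log2 3.69, SE 0.14, adjusted p = 1.97e-07), and Ranbp2 was the 26th of the ranked genes.

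Of the other cytoplasmic-face members, Nup214, an FG protein that docks the mRNA export helicase, rose and 5 did not pass. Nup214 stood at 46.2 and 65.5 CPM in adult and 53.2, 66.5 and 49.4 CPM in young negative IP libraries, against 17.8 and 19.7 CPM in adult and 15.8, 16.7 and 19.7 CPM in young negative supernatants. All 5 IP libraries exceeded the supernatants (log2 1.60, SE 0.16, adjusted p = 6.92e-05). Its partner Nup88 was at 77.5 ± 14.6 CPM in the IP and 69.6 ± 4.80 CPM in the supernatant (SD, n = 5 each; log2 0.08, SE 0.13). Rae1, the mRNA export factor that binds Nup98, had log2 0.06 (SE 0.11), Nupl2 0.17 (SE 0.20), Aaas, the gene of triple A syndrome, 0.37 (SE 0.32), and Gle1, which activates the export helicase, -0.21 (SE 0.21). Rae1 and Nup88 thus did not pass the test, whereas the transcripts of their protein partners Nup98 and Nup214 rose. The transcripts of Rae1 and Nup88 are shorter (1742 and 2453 nt) than those of Nup98 and Nup214 (6694 and 6605 nt). Against the median of tested genes of similar length, Rae1 stood log2 0.44 and Nup88 log2 0.24 higher.

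All 3 basket members rose. Of all genes in the same twentieth of transcript length, 47.5% (Tpr), 35.6% (Nup153) and 23.9% (Nup50) were called higher. Nup153, an FG protein on the nuclear side, had 59.9 and 43.9 CPM in adult and 71.8, 55.3 and 66.2 CPM in young negative IP libraries, against 16.2 and 18.4 CPM in adult and 14.5, 17.1 and 17.1 CPM in young negative supernatants. The groups did not overlap (log2 1.76, SE 0.15, adjusted p = 2.74e-05). Tpr, the coiled-coil protein of the basket filaments, was at 186 to 254 CPM in the IP and 117 to 141 CPM in the supernatant (log2 0.70, SE 0.09, adjusted p = 0.000195). Nup50, a cofactor of importin-mediated import, was at 85.4 to 118 CPM in the IP and 56.5 to 70.4 CPM in the supernatant (log2 0.63, SE 0.12, adjusted p = 0.00212).

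Both membrane nucleoporins among the members that could be tested rose. In the twentieths of transcript length that hold Pom121 and Nup210, 24.3% and 47.5% of all genes were called higher. Ndc1, counted outside the members as Tmem48, was not called. Pom121, which anchors the pore and carries FG repeats, stood at 76.6 and 62.3 CPM in adult and 61.8, 76.3 and 51.5 CPM in young negative IP libraries, against 22.2 and 22.4 CPM in adult and 18.6, 18.6 and 14.8 CPM in young negative supernatants. No IP library came near the supernatants (log2 1.73, SE 0.16, adjusted p = 3.71e-05). Other genes overlap 11.9% of the exon bases of Pom121, and reads there could not be assigned without a stated strand setting. The overlap was 10.4% for Nup133 and 12.4% for Nup188, both with genes that are not in the count table. Nup210, an integral membrane glycoprotein, had 24.9 and 7.64 CPM in adult and 5.37, 13.9 and 7.20 CPM in young negative IP libraries, against 5.79 and 3.64 CPM in adult and 5.42, 4.504 and 5.41 CPM in young negative supernatants. The groups overlapped, and 1 adult IP library held the top value (log2 1.26, SE 0.42, adjusted p = 0.0423). Without that library the difference was 0.71 (adjusted p = 0.237), the pool as a block gave 1.10 (adjusted p = 0.0706), limma voom gave 1.02 (adjusted p = 0.135), and the call was also lost without young IP 2 or without any one of the 5 supernatants (log2 1.01 to 1.41, adjusted p 0.0743 to 0.180).

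The FG proteins that line the central channel did not pass the test. Nup62 had log2 0.13 (SE 0.22), Nup54 -0.26 (SE 0.24) and Nupl1, whose product is Nup58, -0.13 (SE 0.21). Other annotated genes overlap 55.4% of the exon bases of Nupl1. For Nup62 the overlap was 3.40%, with Il4i1 and Atf5.

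None of the 5 inner-ring scaffold genes passed either. Their log2 fold changes were 0.80 (SE 0.40) for Nup155, 0.49 (SE 0.25) for Nup188, 0.34 (SE 0.23) for Nup93, the linker of the ring, -0.20 (SE 0.33) for Nup205 and -0.50 (SE 0.35) for Nup35. Nup205 and Nup188 encode related large scaffold proteins, and their levels in the IP were 7.75 ± 2.94 and 12.02 ± 5.73 CPM (SD, n = 5 each).

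In the Y complex, the outer scaffold, 1 of 8 members rose and 1 fell. Nup133 was at 40.4 and 35.2 CPM in adult and 22.6, 26.2 and 26.6 CPM in young negative IP libraries, against 17.6 and 17.2 CPM in adult and 12.8, 17.1 and 23.6 CPM in young negative supernatants (log2 0.78, SE 0.19, adjusted p = 0.0116). The groups overlapped in young pools, and the call was lost without either adult supernatant (0.75 in both cases). Seh1l, which also serves the GATOR complex of lysosomal nutrient sensing, had 52.9 and 61.9 CPM in adult and 46.8, 50.8 and 70.5 CPM in young negative IP libraries, against 76.9 and 77.1 CPM in adult and 65.6, 69.1 and 73.3 CPM in young negative supernatants. Young IP 3 lay among the supernatants (log2 -0.40, SE 0.13, adjusted p = 0.0423), and the call was lost without any one library other than young IP 3 (log2 -0.45 to -0.34, adjusted p 0.0510 to 0.123). Sec13, which is shared with the COPII coat of secretory vesicles, had -0.21 (SE 0.11), and Nup107, Nup160, Nup85, Nup37 and Nup43 ranged between -0.62 and 0.12. Nup160 had 2 counts in young IP 2 and 141 to 508 in the other negative IP libraries.

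**Figure D2:**
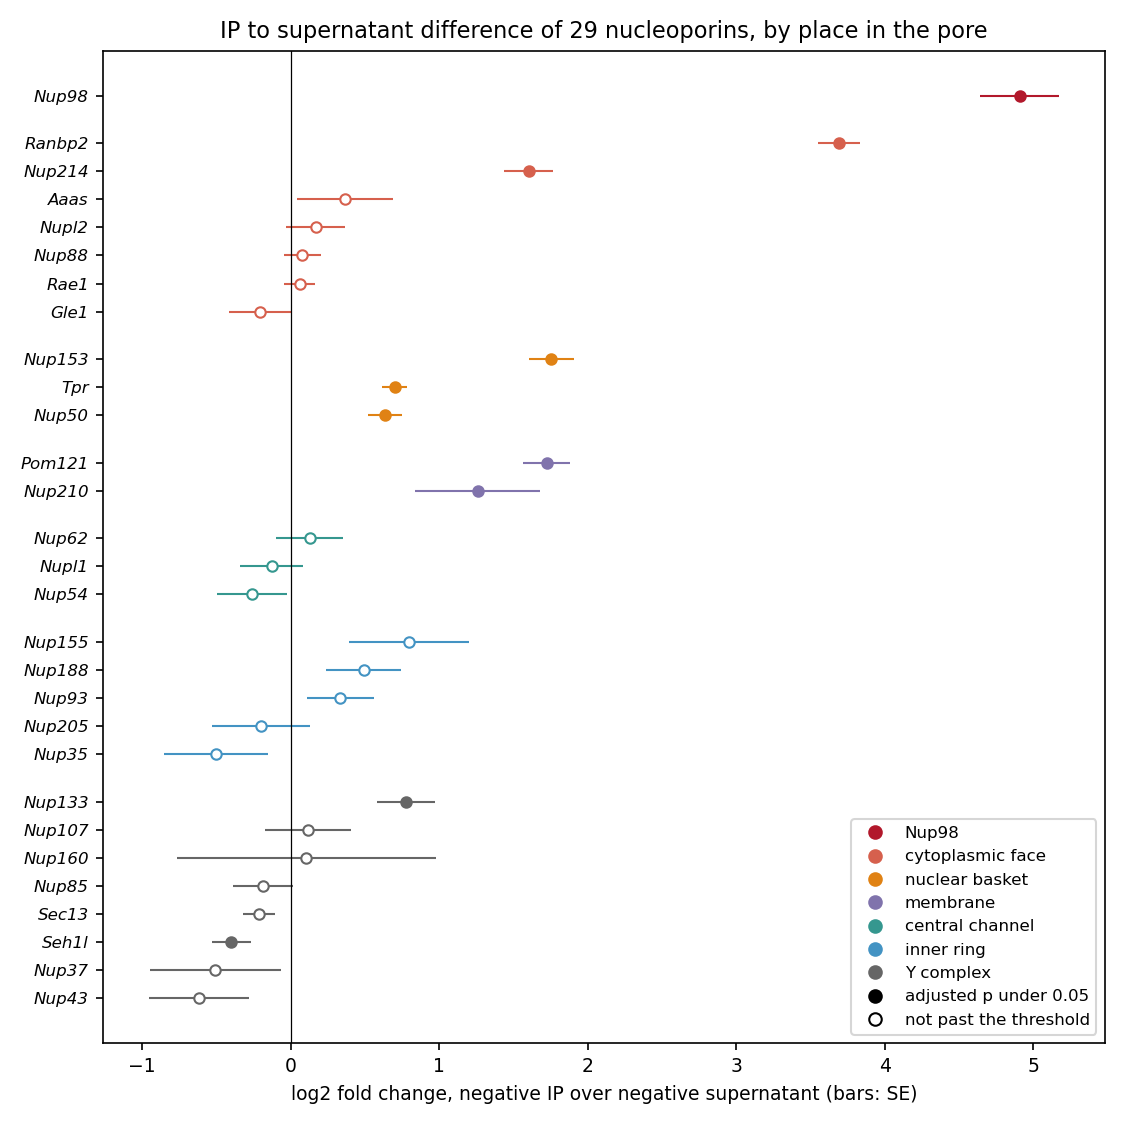
Log2 fold change of negative IP over negative supernatant with its SE for 29 nucleoporins, grouped by place in the pore; filled points passed the adjusted p threshold. Nup98 (4.91) and Ranbp2 (3.69) stand apart from the other 27, which run from -0.62 to 1.76.

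Taken by age within the same fit, 7 members were higher and 1 lower in the young pools, beside 13% and 14.1% of all genes. In the adult pools 8 were higher and 0 lower, beside 6.39% and 4.49%. The called share of members was 27.6% at each age, beside 27.1% (young) and 10.9% (adult) of all genes. Without Nup98 and Ranbp2 it was 22.2% at each age. The result over both ages is the mean of these 2 differences, so they are parts of it and no independent repeat. The adult count by DESeq2 was 9 higher and 0 lower, beside 9.84% and 8.99% of the genes it tested, and no member was lower at an unadjusted p under 0.05. Nup98 had log2 4.69 (SE 0.40) in adult and 5.13 (SE 0.33) in young pools, and Ranbp2 3.53 (SE 0.22) and 3.86 (SE 0.18). Nup153, Pom121, Nup214, Tpr and Nup50 passed at both ages. Nup133 passed in adult pools (1.10, SE 0.30), and Sec13 was lower in young pools (-0.43, SE 0.14). Without adult supernatant 1 the adult count was 2, Nup98 and Ranbp2, and without any one of the other libraries it was 6 to 8. The adult call for Nup50 was lost with limma voom (log2 0.65, adjusted p = 0.0608) and without any one supernatant or adult IP library (0.55 to 0.72), and that for Nup133 without young supernatant 2 or any one adult library (0.98 to 1.204). The young call for Sec13 was lost without any one supernatant, young IP 2 or young IP 3 (-0.48 to -0.32), and that for Nup50 without young supernatant 2 (0.54).

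Within every pool, paired by the titles, Nup98 and Ranbp2 exceeded each of the other 27 members. The ratio of IP to supernatant of Nup98 was 30.5-fold and 19.8-fold in adult negative pools 1 and 2, and 30.4-fold, 44.4-fold and 34.3-fold in young negative pools 1 to 3. For Ranbp2 it was 9.996-fold and 13.4-fold in adult and 13.4-fold, 18.0-fold and 13.5-fold in young negative pools. The median log2 ratio of the other 27 lay between 0.08 and 0.43, and the highest of them in a pool between 1.73 (Nup214, adult pool 2) and 2.31 (Nup153, young pool 1). Among the negative pools the lowest ratio of Nup98 was in adult pool 2 and the lowest of Ranbp2 in adult pool 1. The descriptions of the adult negative supernatants number them 2 and 3 where the titles have 1 and 2, so the adult pairing is less certain. No test was attached to this contrast, since the pair had been singled out with results of these data known.

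**Figure D3:**
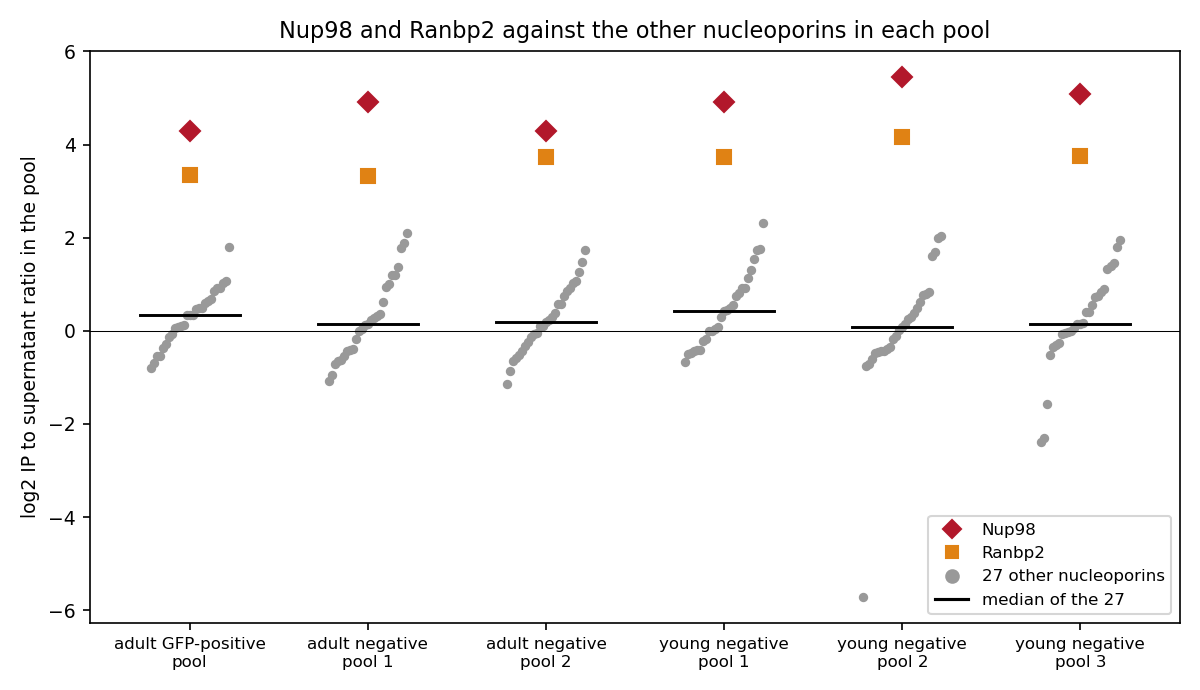
Log2 ratio of IP to supernatant in each of 6 pools for Nup98 (diamonds), Ranbp2 (squares) and 27 other nucleoporins (grey, sorted within a pool; bars are their median). Both genes lie above every other member in each pool, with Nup98 at 4.29 to 5.46 and Ranbp2 at 3.32 to 4.16.

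The makeup of the nucleoporin transcript pool differed accordingly. Nup98 and Ranbp2 together made up 24.4% ± 4.18 of the members' summed CPM in the negative IP (20.3 to 30.7%) and 2.25% ± 0.11 in the negative supernatant (2.13 to 2.42%; SD, n = 5 each). The other 28 members summed to 1220 ± 51.3 CPM in the IP and 975 ± 23.1 CPM in the supernatant. Per kb of the longest annotated transcript, Nup98 was at 23.1 ± 6.68 CPM, the 6th highest of 30, in the IP, and at 0.73 ± 0.12 CPM, the 27th, in the supernatant. Ranbp2 was the 5th in the IP with 25.2 ± 6.41 CPM per kb, and the 23rd in the supernatant with 1.83 ± 0.16 CPM per kb. The top of the order, Sec13, Rae1 and Nup88, was the same in both fractions, with Sec13 at 91.3 ± 12.8 CPM per kb in the IP and 107 ± 10.5 CPM per kb in the supernatant. In the IP the values of Tpr, Ranbp2, Nup98 and Nup50 (28.5, 25.2, 23.1 and 21.1 CPM per kb, with SDs of 4.21, 6.41, 6.68 and 2.51) differed by no more than 1 SD of the more variable neighbour. Libraries of the IP also spread more than supernatants: the median SD of log2 CPM over 29 members was 0.44 in the negative IP and 0.16 in the negative supernatant, beside 0.498 and 0.2495 over all genes tested.

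Longer nucleoporin transcripts stood higher in the IP relative to the supernatant. Across the 29 members Spearman's rho between transcript length and the log2 fold change of IP over supernatant was 0.77, and 0.73 over the 27 without Nup98 and Ranbp2, beside 0.47 over 16137 genes. These are correlations across genes that share the same libraries, given as a description. Against the median of the tested genes in the same twentieth of length, Nup98 (6694 nt) remained 4.22 higher and Ranbp2 (9608 nt) 2.80 higher on the log2 scale, above 99.1% and 99.4% of those genes. Pom121 remained 1.37, Nup153 1.26 and Nup214 0.92 above that median. For Nup210 (0.58), Nup50 (0.37) and Nup133 (0.28) less remained, and for Tpr, 7480 nt long, the value was 0.02. Seh1l was 0.42 below the median of its length class. Members that did not pass also stood off their length class, among them Aaas (0.75), Rae1 (0.44) and Nup205 (-0.69).

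The 5 leading genes also had many FG codon pairs. The count was 41 in Nup98, 20 in Ranbp2, 29 in Nup153, 24 in Pom121 and 46 in Nup214, and 11 in Nupl2, whose log2 fold change was 0.17. Of 6 tested members with at least 10 pairs, 5 were higher in the IP (median log2 1.74), and of 22 with fewer, 4 were higher and 1 lower (median 0.09). The 6 were also longer, with a median transcript length of 6357 nt against 3021 nt for the 22. Relative to genes of the same length the medians were 1.32 and 0.07. The limit of 10 was set after the values were seen, so these are descriptions. The channel genes Nup54 (8 pairs) and Nup62 (6 pairs), whose short coding sequences hold 15.7 and 11.4 pairs per 1000 codons, did not pass, whereas Ranbp2, with 6.55 per 1000, did. Nup98 held 9 GLFG codon runs, the most of any of the 16869 coding genes of the table. Outside the nucleoporins, 66 tested genes had at least 10 pairs, and 39.4% of them were higher in the IP, beside 16.7% of other genes with fewer. These 66 had a median transcript length of 11664 nt, and their median difference was 0.85, or 0.16 above genes of the same length. Of 69 other genes with at least 15 pairs per 1000 codons, 5.80% were higher and 30.4% lower.

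**Figure D4:**
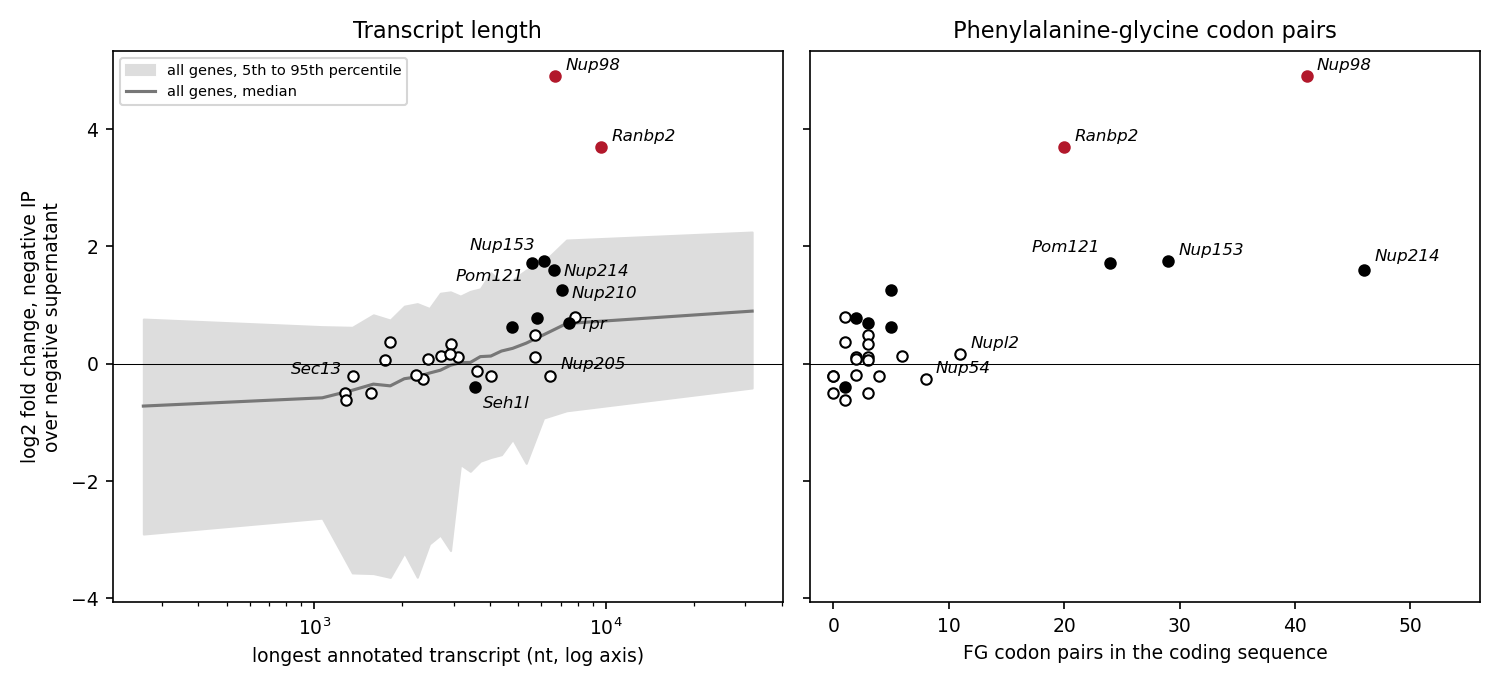
Log2 fold change of negative IP over negative supernatant against the length of the longest annotated transcript (left, log axis, with the median and the 5th to 95th percentile of all genes) and against FG codon pairs in the coding sequence (right); each point is a nucleoporin and filled points passed the threshold. Nup98 and Ranbp2 (red) lie above the band of genes of their length.

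The genes that work with the pore were taken in 5 lists, whose counts stand beside the 32.1% of all genes called (15.8% higher and 16.2% lower). Of 23 import and export receptors (13.04% called), 1 rose, Tnpo1, the transportin that imports RNA-binding proteins (log2 0.73, SE 0.22), and 2 fell, the importin alpha gene Kpna1 (-0.62, SE 0.20) and the exportin Xpo7 (-0.50, SE 0.16), with a list median of -0.02. Of 10 genes of the Ran cycle none rose and 3 fell, a called share near that of all genes: Ranbp1 (-0.81, SE 0.10), Ran itself (-0.44, SE 0.08) and Ranbp3 (-0.35, SE 0.11). Ran, the binding partner of Ranbp2, was at a mean of 404 CPM in the IP (SD 54.6, n = 5), against 541 CPM in supernatants (SD 29.4, n = 5). Over all genes the median log2 fold change was -0.72 in the shortest twentieth of length and 0.90 in the longest, which holds Ranbp2. No values against genes of the same length are given for these 5 lists. Of 19 mRNA export genes (47.4% called) 2 rose and 7 fell (median -0.27). Those that rose were Mcm3ap, which encodes the GANP scaffold of the TREX-2 complex at the basket (1.73, SE 0.24), and Thoc2 (0.55, SE 0.16), and those that fell included Thoc7 (-0.81, SE 0.13), the Nxf1 cofactor gene Nxt2 (-0.81, SE 0.13) and the adaptor gene Alyref (-0.70, SE 0.10). Of 8 tested pore-associated genes (37.5% called), Ahctf1, which encodes the chromatin-binding nucleoporin ELYS (1.31, SE 0.20), and the basket-bound protease gene Senp1 (0.91, SE 0.22) rose and Senp2 fell (-0.31, SE 0.10). Of 15 nuclear envelope and lamina genes (46.7% called) 5 rose, led by Lemd3 (1.401, SE 0.20) and Sun1 (1.28, SE 0.18), and 2 fell, Emd (-0.95, SE 0.14) and Banf1 (-0.74, SE 0.10).

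With the ribosome tag present, Nup98 and Ranbp2 were again high in the IP relative to the supernatant. In the adult GFP-positive pool, without replicate, Nup98 was at 115 CPM in the IP and 5.78 CPM in its supernatant, 19.8-fold, and Ranbp2 at 149.7 and 14.6 CPM, 10.2-fold. Both values in the GFP-positive IP lay within or below the range of the negative IP libraries, with Ranbp2 below all 5. Nup98 and Ranbp2 made up 16.7% of the members' CPM in that IP and 1.97% in its supernatant. Against the adult negative IP 0 of 29 members passed with edgeR, beside 0.00603% of 16586 genes, 0 passed with DESeq2 or limma voom, beside 1.27% and 0.00603% of all genes, and 3 had an unadjusted p under 0.05, beside 4.95% of all genes. Nup98 had log2 -0.18 (SE 0.45) and Ranbp2 -0.30 (SE 0.30). The lone library was assumed to vary as the negative ones did. In simulated counts this comparison recovered 9% of changes of log2 1 and 90% of changes of log2 2. The absence of calls thus does not show that the tag made no difference. The direction for Nup98 turned to 0.52 without adult IP 1. The 3 members with an unadjusted p under 0.05 were Nup54 (1.34, SE 0.57), Nup88 (0.84, SE 0.30) and Nup133 (-1.20, SE 0.44).

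Age changed no nucleoporin past the threshold in the IP. Between adult and young negative IP, 0 of 29 passed with edgeR, beside 0.727% of all genes, and 7 had an unadjusted p under 0.05, beside 17.7% of all genes. DESeq2 called 4 (Nup107, Nup188, Nupl2 and Tpr), beside 8.02% of the genes it tested, and limma voom 0, beside 0.361%. Nup107 was at 9.48 and 5.56 CPM in adult and 25.4, 12.8 and 35.5 CPM in young negative IP libraries (log2 -1.67, SE 0.44, adjusted p = 0.106). Nupl2 was at 27.96 and 17.9 CPM in adult and 10.8, 11.1 and 11.1 CPM in young negative IP libraries (log2 1.08, SE 0.28, adjusted p = 0.103). Adult libraries all lay above the young for Nupl2, Tpr and Nup133, as for 12.4% of all genes, and all below for Nup107, Nup188 and Ranbp2, as for 11.8% of all genes. Nup188 had 6.48 and 6.43 CPM in adult and 20.1, 13.6 and 13.6 CPM in young IP libraries (log2 -1.26, SE 0.37, adjusted p = 0.136). Nup98 differed by -0.31 (SE 0.31) and Ranbp2 by -0.52 (SE 0.18, adjusted p = 0.174). Without adult IP 2 the value for Nup98 turned to 0.17, and Nupl2 was then called, as was Nup107 without young IP 2, each the only member called in that leave-out. For the age by fraction term, which asks whether the ratio of IP to supernatant differs with age, 0 of 29 passed with edgeR, beside 0% of all genes, 0 with DESeq2, beside 0.737%, and 0 with limma voom, beside 0%, and 2 had an unadjusted p under 0.05, beside 6.53% of all genes. Nup98 had -0.44 and Ranbp2 -0.33 for this term.

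In the supernatants no nucleoporin passed the test for age with edgeR. Of 30 tested in 10 pools of the second sequencing set, with pool origin as a term, 0 passed with edgeR, beside 8.77% of 16657 genes (3.83% higher and 4.94% lower), 1 with DESeq2 (Nup43), beside 14.1% of the genes it tested, and 0 with limma voom, beside 9.74%. An unadjusted p under 0.05 was found for 5 of 30, beside 23.9% of all genes. Nup43, a Y-complex gene, was at 10.54, 11.6, 12.6, 13.05 and 14.3 CPM in adult and 8.83, 9.54, 9.57, 10.3 and 10.48 CPM in young supernatants (log2 0.35, SE 0.12, adjusted p = 0.0870). It was the 1 member whose adult libraries all lay above the young, by a narrow margin, as 2.52% of all genes did, and no member lay below, as 3.53% of all genes did. Pom121 had log2 0.36 (SE 0.13, adjusted p = 0.114), and without young prior pool 2 it was called. Nup210l, with 0 to 5 counts per adult and 1 to 19 per young library, had log2 -2.48 (SE 1.02, adjusted p = 0.152). Nup98 was at 6.62 ± 1.93 CPM in adult and 5.15 ± 1.33 CPM in young supernatants (SD, n = 5 each; log2 0.33, SE 0.19), and Ranbp2 at 19.2 ± 5.13 and 19.3 ± 1.58 CPM (log2 -0.04, SE 0.12). The sign for Ranbp2 turned with the choice of pools, to 0.24 among the prior pools alone.

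Repeated sequencing of the same 4 pools moved 5 members. Of 29 tested, 2 were higher and 3 lower in the second set than in the first, beside 15% and 16.1% of 16117 genes (31.1% in either direction), with the pool as a block. Ranbp2 was at 26.95, 21.7, 19.6 and 21.4 CPM in the second set, against 17.4, 14.3, 14.8 and 12.7 CPM in the first set, for adult pools 3 and 4 and young pools 1 and 2. It was higher in 4 of 4 pools (log2 0.59, SE 0.10, adjusted p = 0.000264). Tpr was higher by 0.27 (SE 0.05, adjusted p = 0.000917). Nup188 was lower (log2 -0.55, SE 0.12), as were Gle1 (-0.28, SE 0.06) and Nup93 (-0.26, SE 0.09), each in 4 of 4 pools. The call for Nup93 was lost without young pool 1, adult pool 3 or adult pool 4 (log2 -0.26 to -0.24). Nup98 did not pass (0.01, SE 0.17), with 8.76, 8.34, 4.27 and 7.41 CPM in the second set, against 8.12, 6.88, 7.08 and 5.54 CPM in the first set. These p-values refer to repeats of the same RNA. Differences between the sets ran with GC content: Spearman's rho was -0.67 over the 29 members and -0.45 over 15907 genes, and the Ranbp2 transcript, at 40.6% GC, had the lowest GC content of the members, with Tpr at 45.0%, Nup93 at 48.6%, Gle1 at 50.8% and Nup188 at 54.3%. Members near either end of the GC range that did not pass were Seh1l (42.0%, log2 0.08), Nup155 (42.7%, 0.04), Nup62 (57.4%, 0.04) and Pom121 (57.6%, -0.04). Genes in the same twentieth of length as Ranbp2 had a median of 0.33 between sets, 49.4% of them called higher, and Ranbp2 stood 0.25 above that median. The rho between GC content and the log2 fold change of IP over supernatant was 0.21 over the members and -0.01 over all genes. The shift of Ranbp2 between sets, log2 0.59, was measured in supernatants only. Its difference between IP and supernatant was 3.69, with all libraries of the second set, and the part of technical effects in it was not tested.

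**Figure D5:**
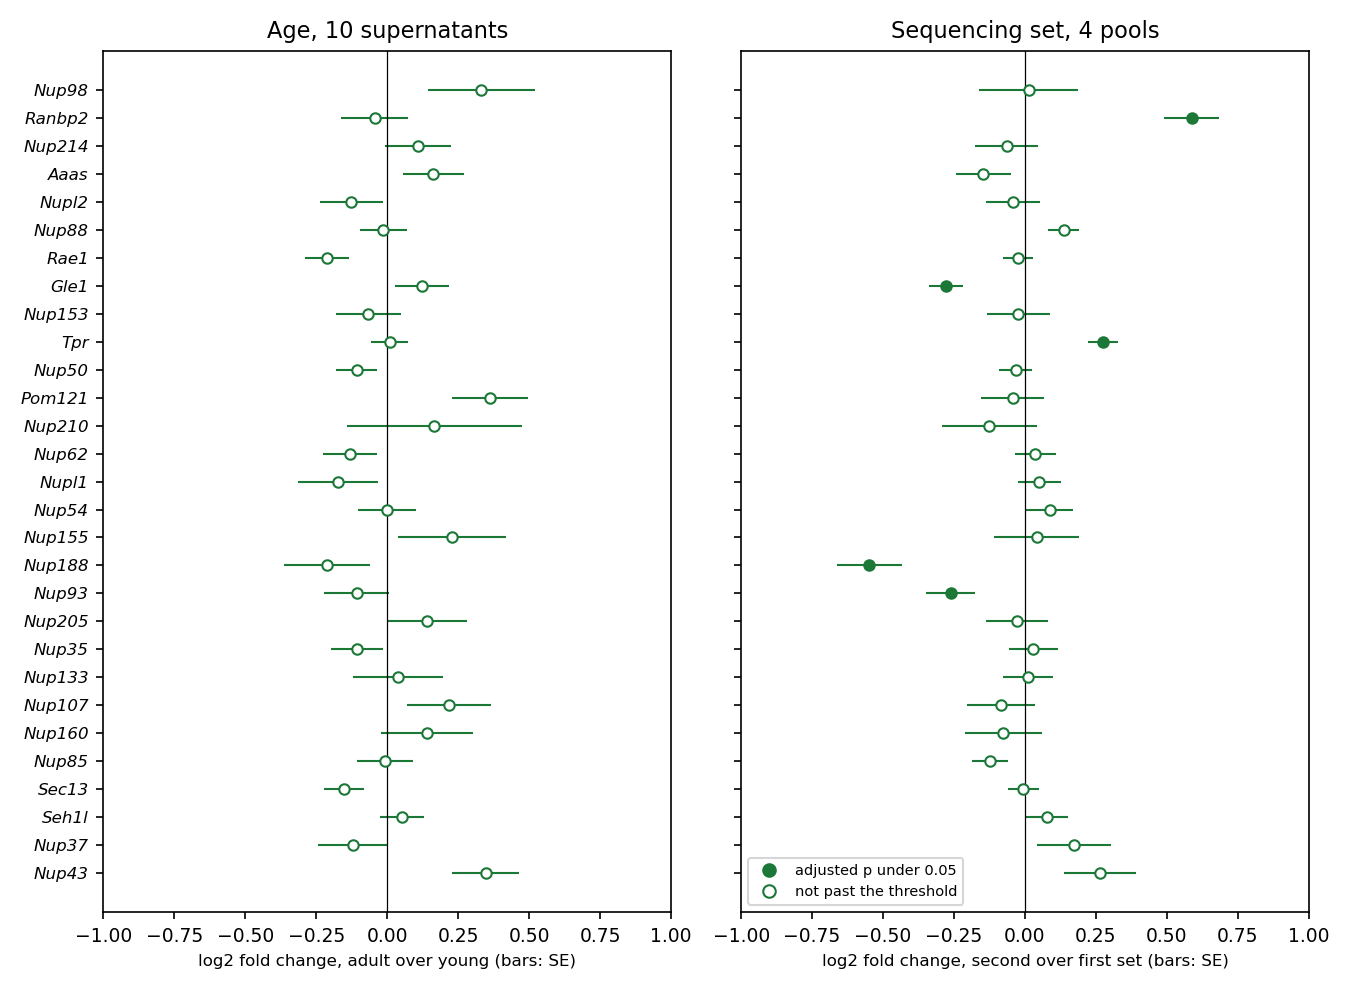
Log2 fold change with its SE for 29 nucleoporins, adult over young supernatant in 10 pools (left) and second over first sequencing set in 4 pools (right); filled points passed the adjusted p threshold, and Nup210l (-2.48 for age) is not drawn. No member passed for age, and 5 passed between sets, with Ranbp2 at 0.59 and Nup188 at -0.55 as the extremes.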

How the data were processed

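The deposited table held raw whole-number counts per gene symbol for 20 libraries; no row lacked a gene name. The authors' steps named in the submitters' processing notes used HTSeq 0.6.1, TopHat2 2.0.13 and Bowtie2 2.2.1, and DESeq2 1.14.1, on build mm10, and the strand setting of the counting is not given in the sources used here. RNA was amplified, per the labels' protocols, with a SMARTer ultra-low-input polyA kit.

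Counts of all genes were tested with edgeR 4.0.16 in R 4.3.3 (TMM, filterByExpr with minimum count 10, Benjamini-Hochberg over all genes tested). The SE of a log2 fold change, in text and figures, was derived from that test. It is the absolute log2 fold change divided by the square root of the F statistic. One fit held the 10 negative-control libraries, others the 10 supernatant pools (pool origin as a term), the 8 libraries of 4 repeated pools (pool as a block) and the 6 IP libraries. Alternatives were RLE scaling, no filter, DESeq2 1.42.0, limma 3.58.1 voom, a pool block, each library left out, and removal of the length trend. The code was tested on simulated data.

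Transcript lengths and coding sequences came from GENCODE M21 (18955 genes matched, 98.4%), using the longest transcript, which need not be the one expressed. FG pairs were counted in coding sequences in place of the reference proteins planned; Nupl1 had no protein-coding transcript there. Groups follow the sample titles. The title number was taken to tie each IP to the supernatant of its own pool. The descriptions, however, number the adult negative supernatants 2 and 3 where the titles have 1 and 2. Deviations from the group means correlated at 0.0982 to 0.263 for same-numbered young libraries and -0.194 to 0.0488 for other young pairs (Pearson's r across genes). With 2 adult pools the same-numbered and crossed values, 0.0923 and -0.0923, are 1 value with its sign turned. Members, role groups, gene lists and tests were chosen with earlier results of these data known. One gene of the Ran cycle list is not reported here. Members were all named, in role groups, with values per library for Nup98, Ranbp2 and up to 6 called members in each direction. The spread behind the p-values is that between libraries of different pools within a group, except between sequencing sets. There it is the spread between repeats of the same RNA. In the main fit of IP against supernatant the 2 libraries of a pool counted as separate, and the lone GFP-positive IP had no spread of its own.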

Additional observations from a re-analysis of the deposited data

Results flagged for a closer look

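Single libraries stood far from the rest of their group in 6 of 116 member-by-group sets looked at, where chance gives about 1 in 20. In the negative IP, Nup43 had 2.95 CPM in young IP 3 against 7.504 to 9.29 CPM in the other 4, and Nup54 had 29.97 CPM in young IP 1 against 14.03 to 16.8 CPM. Among adult supernatants of the second set, Gle1 had 66.7 CPM in adult negative supernatant 2 against 86.4 to 91.1 CPM, Nup85 had 39.6 CPM in adult prior pool 3 against 47.8 to 50.7 CPM, and Rae1 had 96.8 CPM in adult prior pool 4 against 75.2 to 81.3 CPM. Among young supernatants, Pom121 had 28.2 CPM in young prior pool 2 against 14.8 to 18.6 CPM.

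For 2 of 29 members every adult negative pool had a ratio of IP to supernatant on one side of 1 and every young pool one on the other, as for 3.31% of all genes; the fitted values differed in sign for 9 members, beside 25.95% of all genes. The log2 ratio of Nup107 was -1.13 to -0.44 in adult pools and 0.25 to 1.399 in young pools, and the difference of adult minus young was -1.75 (SE 0.59, unadjusted p = 0.0134, adjusted p = 0.734 with edgeR). That of Nupl2 was 0.57 to 1.00 in adult pools and -0.48 to -0.34 in young pools, a difference of 1.26 (SE 0.40, unadjusted p = 0.0101, adjusted p = 0.734). Neither passed after adjustment over all genes.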

How the results depend on the processing

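Over both ages Nup98, Ranbp2, Nup153, Pom121, Nup214, Tpr and Nup50 kept their calls in each of the 15 alternatives with a test, with log2 4.54 to 5.15 for Nup98 and 3.58 to 3.79 for Ranbp2 in the leave-outs, and the count of called members ran from 7 to 10. The pool as a replicate block gave 9 called members over both ages, 8 in young and 8 in adult pools, lost Nup210 (log2 1.10, adjusted p = 0.0706), as limma voom did, and changed no other call. In adult pools leaving out 1 library gave 2 to 8 calls, with 2 without adult supernatant 1; a lone adult library was then assumed to vary like the other groups, and the cause was not tested. For age within the IP DESeq2 gave 4 calls and the leave-outs 0 to 1; for age in the supernatants DESeq2 gave 1 and the leave-outs 0 to 1; the causes were not tested. With the length trend removed, the young values of Sec13 and Tpr turned to 0.073 and -0.21. Nup98 turned to 0.17 for age within the IP without adult IP 2 (leave-outs -1.05 to 0.17) and to 0.038 for age by fraction (-1.18 to 0.038). Between sets its leave-outs ran from -0.12 to 0.25, and against the GFP-positive IP from -0.65 to 0.52. Ranbp2 in the supernatants by age turned to 0.24 in the prior pools alone (leave-outs -0.14 to 0.017). None of these values was called. Without the pool block, 4 members were called between sets, without Nup93 (adjusted p = 0.125). The GFP-positive pool had no replicate, and with 2 adult IP libraries the adult values rest on few pools.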
